A study of Mus musculus with 204 samples.

Results

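Stom, Mettl21c and Mlf1 are 3 mouse genes, taken from a table of 13153 genes with complete values, that were named for their difference between the diets in skeletal muscle. Their rows were read in every library of an atlas of 21 tissues from diet-induced obese (DIO) and lean mice. DIO mice were male C57BL/6J animals kept for 10 weeks on a diet with 60% fat. Lean mice were male C57BL/6J animals kept on chow with 13.1% fat. No transgene or allele separated the groups. Every tissue had 5 libraries of polyadenylated RNA per diet, apart from 3 tissues. Subcutaneous fat had 3 DIO and 5 lean libraries, mesenteric fat had 4 DIO and 3 lean, and a fast hindlimb muscle, the extensor digitorum longus (EDL), had 5 DIO and 4 lean. The 3 skeletal muscles were soleus, a slow postural muscle, red gastrocnemius, an oxidative part of the calf, and EDL. Heart was the other striated muscle.

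Stom encodes stomatin, an integral membrane protein of lipid rafts first known from the red cell membrane, where it binds cholesterol and regulates ion channels and transporters. Mettl21c encodes a lysine methyltransferase of skeletal muscle, for which the chaperone ATPase VCP is a known substrate. Mlf1 encodes myeloid leukemia factor, named after its fusion to nucleophosmin in leukaemia; it is a small adaptor protein abundant in skeletal muscle and heart.

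In the GENCODE M21 annotation of GRCm38, Stom (ENSMUSG00000026880) lay on the minus strand of chromosome 2 at 35313986 to 35336976. Mettl21c (ENSMUSG00000047343) lay on the minus strand of chromosome 1 at 44009408 to 44020034. Mlf1 (ENSMUSG00000048416) lay on the plus strand of chromosome 3 at 67374097 to 67400003. All 3 were protein-coding, with 2.827, 4.3 and 1.719 kb of summed exon length for Stom, Mettl21c and Mlf1. A processed pseudogene, Gm15838, lay within Mettl21c and reached 0.337 CPM at most, where CPM is reads per 1000000 reads of the library. Gm17402 overlapped the first 1067 bases of Mlf1 on the opposite strand and had no read in any library.

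RefSeq promoter windows, 250 bases before to 50 after the annotated start, were at hand for 2 of the 3 members, Stom and Mlf1. They are shown because the diet groups of both genes were apart in red gastrocnemius, in opposite directions. Capitals mark matches, on either strand, to the E-box (CANNTG), the nuclear receptor motif (AAGGTCA), the cyclic AMP response element (TGACGTCA), the CCAAT box, the GC box (GGGCGG) or a MEF2-like core. The windows are Stom at chr2:35336960-35337259 (minus strand) and Mlf1 at chr3:67373847-67374146 (plus strand), both GRCm38.p6, written 5′ to 3′.
Stom: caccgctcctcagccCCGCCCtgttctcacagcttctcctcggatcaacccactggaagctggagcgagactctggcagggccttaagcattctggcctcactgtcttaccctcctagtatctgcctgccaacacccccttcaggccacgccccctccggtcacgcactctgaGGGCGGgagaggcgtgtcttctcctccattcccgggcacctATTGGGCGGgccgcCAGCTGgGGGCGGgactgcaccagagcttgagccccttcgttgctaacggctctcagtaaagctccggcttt
Mlf1: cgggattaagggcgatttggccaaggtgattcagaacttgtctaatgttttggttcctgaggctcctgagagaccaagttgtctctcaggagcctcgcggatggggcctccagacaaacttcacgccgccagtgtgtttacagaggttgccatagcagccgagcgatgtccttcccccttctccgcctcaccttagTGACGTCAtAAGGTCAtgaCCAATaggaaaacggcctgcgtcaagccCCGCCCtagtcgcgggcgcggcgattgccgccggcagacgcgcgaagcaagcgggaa

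The Stom window held 4 matches to GGGCGG, the GC box, against a share of 35.7% of all 32851 promoter windows with at least 1. It also held 1 CCAAT, on the minus strand and overlapping a GC box, where 37.4% of windows had a match, and 1 E-box (CANNTG), where 72.3% had a match. The Mlf1 window held 1 match to TGACGTCA, the cyclic AMP response element, which 1.79% of windows contained. One match to AAGGTCA, a nuclear receptor motif found in 4.72% of windows, followed it, and after that came 1 CCAAT and 1 GGGCGG. Neither window held the MEF2-like core, found in 3.69% of windows. Stom's window was 63.3% G and C and Mlf1's 58.3%, against a median of 52.7% over all windows.

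Library totals ran from 6.58 to 129.7 M reads (M, 1000000) over all tissues and from 15.2 to 29.1 M reads in the 39 muscle and heart libraries, so 1 CPM in muscle was at least 15 reads. A count of 3 reads, the smallest treated as detection, was 0.103 to 0.197 CPM there. The labelled muscles carried their defining markers. Tnni1, slow troponin I, was at 1291 to 1655 CPM in DIO and 1388 to 1839 CPM in lean soleus, but at 1.3 to 15.2 CPM in DIO and 1.29 to 27.0 CPM in lean EDL. Tnnt2 and Actc1, troponin T and alpha actin of the heart, summed to 12239 to 13783 CPM in DIO and 13050 to 14006 CPM in lean hearts. Some libraries stood apart. EDL DIO 3 had 1020 CPM of the adipocyte gene Fabp4, EDL lean 3 had 39.9 CPM of the erythroid gene Alas2, heart lean 3 had 258 CPM of Pck1, and heart lean 5 ranked genes least like the other hearts (median rank correlation 0.853). Diet differences of the members in EDL and heart are given with and without them. The design names 5 mice per diet, but the labels do not say whether libraries came from separate animals or which libraries share a mouse. The p-values therefore measure the spread between these samples, and fits over several tissues treated the libraries as independent.

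In soleus and red gastrocnemius, Stom was higher in every DIO library than in every lean library, and in EDL the groups overlapped. Soleus held 115, 136, 123, 149 and 134 CPM in DIO libraries, against 84.1, 81.5, 75.8, 73.1 and 74.6 CPM in lean libraries. The means were 131 ± 13.1 CPM in DIO and 77.8 ± 4.74 CPM in lean soleus (SD, n = 5 each). The log2 difference, on the log2(CPM + 1) scale used throughout, was 0.74 ± 0.07 (SE). Because the members were chosen on this contrast, their differences in the 3 skeletal muscles are described and not tested. Of the 1691 genes fitted in soleus, 2.42% were higher in DIO without overlap, and nothing is read from this share or its like in the other skeletal muscles.

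Red gastrocnemius held 72.5, 101, 91.0, 96.6 and 91.2 CPM of Stom in DIO libraries, against 54.6, 50.4, 52.1, 53.7 and 47.3 CPM in lean libraries. The mean of 90.5 ± 10.9 CPM in DIO was 1.75 times the mean of 51.6 ± 2.89 CPM in lean muscle, a log2 difference of 0.79 ± 0.08. The lowest DIO library, at 72.5 CPM, was still above the highest lean library, at 54.6 CPM. Of the 1640 genes fitted there, 3.54% were higher in DIO without overlap and 2.8% lower.

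In EDL, Stom had 36.8, 32.7, 69.4, 57.9 and 62.1 CPM in DIO libraries, against 39.2, 54.3, 59.2 and 53.3 CPM in lean libraries. DIO libraries fell on both sides of the lean ones, and the means were 51.8 ± 16.1 and 51.5 ± 8.59 CPM (SD; 5 DIO, 4 lean). The log2 difference was -0.04 ± 0.23, and -0.08 without EDL DIO 3 and lean 3. The median gene was shifted by -0.12 in EDL, and after rescaling by the median of ratios the sign of Stom turned, to 0.08. Fewer cells of a type and less RNA per cell cannot be told apart in any of these bulk samples.

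Mettl21c was lower in every DIO library than in every lean library of red gastrocnemius and EDL, while in soleus the DIO mean was the higher one and the groups overlapped. Red gastrocnemius held 44.6, 36.2, 36.8, 36.3 and 34.5 CPM in DIO libraries, against 57.6, 58.5, 71.6, 50.5 and 62.7 CPM in lean libraries. Its means were 37.7 ± 3.94 CPM in DIO and 60.2 ± 7.74 CPM in lean muscle, a log2 difference of -0.66 ± 0.09. All 5 DIO values lay below the lowest lean value.

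EDL held 60.3, 53.6, 41.1, 52.3 and 73.9 CPM of Mettl21c in DIO libraries, against 84.1, 132, 84.6 and 108 CPM in lean libraries. The DIO mean of 56.2 ± 12.1 CPM was 0.55 times the lean mean of 102 ± 22.9 CPM, a log2 difference of -0.85 ± 0.19. No EDL library crossed between the groups, where 0.684% of the 1462 genes fitted were lower in DIO without overlap. Without EDL DIO 3 and lean 3 the difference was -0.83, and after rescaling -0.73.

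Soleus held 87.6, 116, 156, 112 and 85.5 CPM of Mettl21c in DIO libraries, against 101, 78.2, 64.6, 86.1 and 96.3 CPM in lean libraries. The means were 111 ± 28.4 CPM in DIO and 85.3 ± 14.6 CPM in lean soleus, with a log2 difference of 0.36 ± 0.17. The highest 3 DIO libraries were above all lean libraries, and the other 2 lay within the lean range.

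Mlf1 was lower in every DIO library than in every lean library of red gastrocnemius, and its groups overlapped in soleus and EDL. Red gastrocnemius held 115, 105, 87.7, 106 and 118 CPM in DIO libraries, against 160, 167, 181, 141 and 189 CPM in lean libraries. The mean of 106 ± 11.9 CPM in DIO was 0.635 times the mean of 168 ± 18.5 CPM in lean muscle, and the log2 difference was -0.65 ± 0.09. All 3 members separated the diets in red gastrocnemius, Stom upwards and Mettl21c and Mlf1 downwards, in the contrast that chose them. Of the 1640 genes fitted there, 3.54% were higher and 2.8% lower in DIO without overlap.

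In EDL, Mlf1 had 109, 107, 67.2, 90.0 and 191 CPM in DIO libraries, against 94.4, 266, 117 and 247 CPM in lean libraries. One DIO and both highest lean libraries stood well above the rest of the muscle, and the log2 difference was -0.62 ± 0.35, or -0.50 after rescaling and -0.62 without EDL DIO 3 and lean 3. In soleus, Mlf1 had 95.5, 69.5, 52.1, 49.7 and 74.6 CPM in DIO libraries, against 80.0, 96.9, 70.1, 72.3 and 81.9 CPM in lean libraries. The soleus groups overlapped, with a log2 difference of -0.26 ± 0.17, or -0.47 with the library index described next as a covariate.

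**Figure D1:**
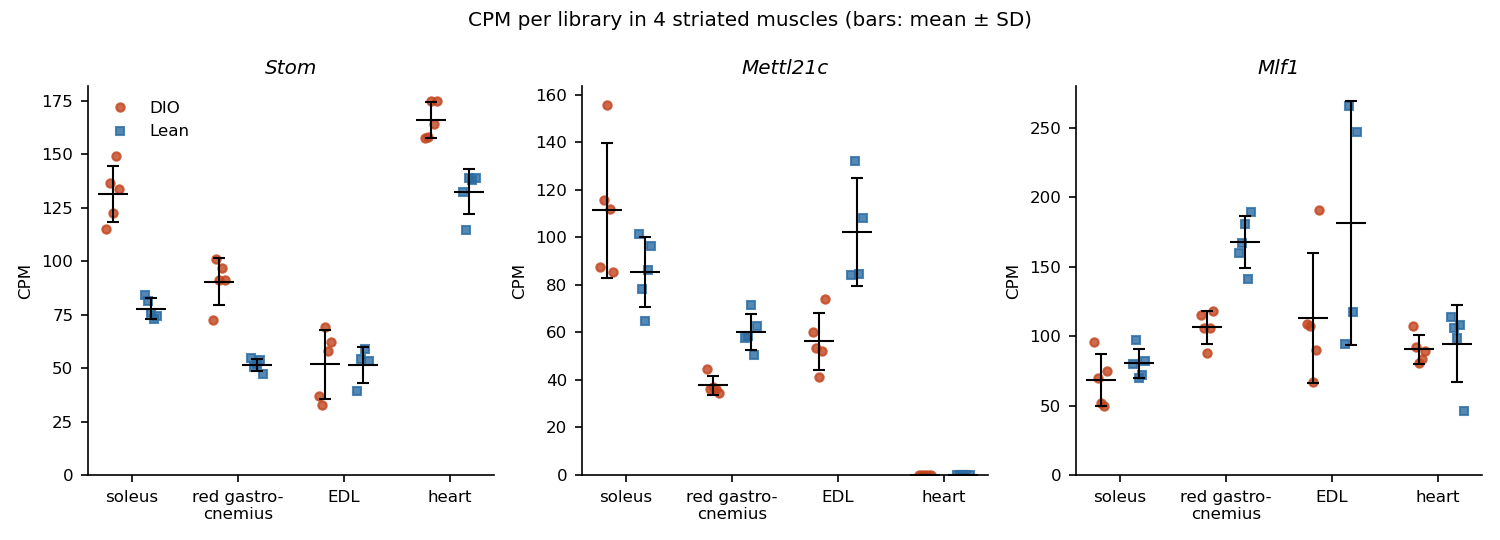
CPM of Stom, Mettl21c and Mlf1 (vertical axes, from 0) in each DIO (circles) and lean (squares) library of soleus, red gastrocnemius, EDL and heart; bars are mean ± SD. Stom lies higher in DIO soleus, red gastrocnemius and heart without overlap, Mettl21c lies lower in DIO red gastrocnemius and EDL and is at or near 0 in heart, and Mlf1 lies lower in DIO red gastrocnemius.

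The spread of Mlf1 in EDL moved with a library index of 10 genes taken from earlier work on these data, the mean log2 level of 5 genes such as the ribosomal protein gene Rpl22l1 minus that of 5 others. The 3 EDL libraries of high index, from 1.72 to 1.96, held 191 CPM (DIO 5) and 266 and 247 CPM (lean 2 and 4) of Mlf1. The other 6, from -0.85 to 0.27, held 67.2 to 117 CPM. Within the low-index libraries the DIO minus lean difference was -0.20 (4 DIO, 2 lean), and within the high-index ones -0.42 (1 DIO, 2 lean). With the index as a covariate the Mlf1 difference in EDL was -0.25, and its part in the result was not tested further.

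The Mettl21c difference was -0.71 within the low-index EDL libraries (4 DIO, 2 lean) and -0.68 within the high-index ones (1 DIO, 2 lean). The part of the index in it was not tested. In red gastrocnemius the index ran from 1.16 to 1.51 over all 10 libraries, and with it as a covariate the differences were 0.82 for Stom, -0.68 for Mettl21c and -0.63 for Mlf1. In soleus, 2 DIO and 2 lean libraries held 6652 to 7075 CPM of the titin gene (Ttn), and the other 3 of each diet 13211 to 16125 CPM. Stom's difference was 0.59 within the low-Ttn libraries (2 DIO, 2 lean) and 0.85 within the high-Ttn ones (3 DIO, 3 lean). For Mettl21c these values were 0.18 and 0.49, and for Mlf1 -0.11 and -0.36.

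**Figure D2:**
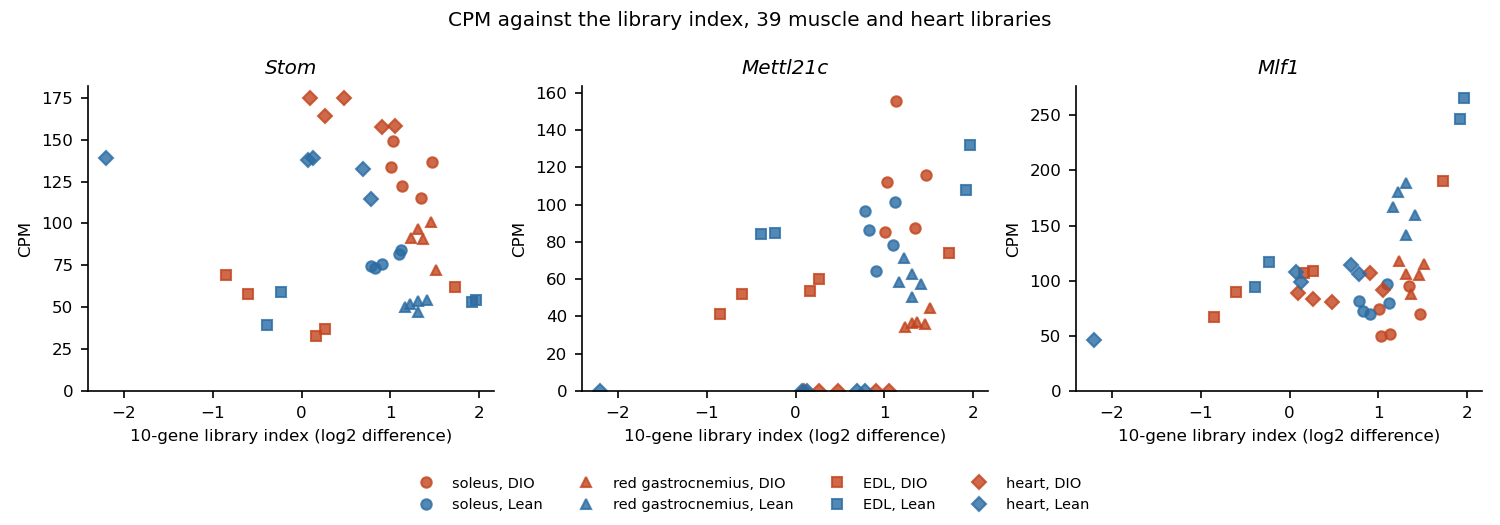
CPM of each member (vertical axes) against the 10-gene library index (horizontal axes, a difference of mean log2 levels) in the 39 muscle and heart libraries, with DIO in orange and lean in blue. The EDL libraries (squares) with an index above 1.7 hold 191 to 266 CPM of Mlf1, and heart lean 5, with an index of -2.20, holds 45.9 CPM.

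The members were named for skeletal muscle, so their differences in heart were tested. Whether heart values also entered that choice is not known, so these p-values only describe the spread. Stom had 158, 158, 175, 164 and 175 CPM in DIO hearts, against 133, 114, 139, 138 and 139 CPM in lean hearts. Every DIO heart was above every lean heart, as for 1.6% of the 1753 genes fitted. The log2 difference was 0.32 ± 0.09, and it did not pass the threshold of 0.05 (limma, Benjamini-Hochberg adjusted p = 0.429). Without heart lean 3 and 5 it was 0.37 with an adjusted p of 0.0973. Within hearts of low Ttn (2 DIO, 2 lean) the difference was 0.36 and within hearts of high Ttn (3 DIO, 3 lean) 0.30. With array weights it was 0.37 and passed (adjusted p = 0.000507). Only 2 genes, or 0.114%, passed the threshold in heart, against 811 with array weights.

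Mlf1 in heart had 107, 92.0, 80.5, 83.4 and 89.2 CPM in DIO libraries, against 114, 106, 98.9, 108 and 45.9 CPM in lean libraries. The groups overlapped, DIO 1 being above lean 2 and 3 and lean 5, at 45.9 CPM, below all others. The log2 difference was 0.00 ± 0.22 (adjusted p = 0.999), and -0.28 (adjusted p = 0.514) without heart lean 3 and 5. With array weights it was -0.39 and passed (adjusted p = 0.00232).

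Mettl21c had no read in the 5 DIO hearts, with 107 M reads in all, and 1 read in the 5 lean hearts, with 118 M reads in all. Set against 3 reads over the group, the limit that a count of 0 allows, or 0.0281 CPM, the mean of DIO soleus was at least 3962-fold higher. In lean mice the ratio of soleus to heart was 10109, with an exact 95% Poisson interval for the heart read of 1814 to 399296 that covers counting error only.

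The order of the muscles was different for each gene. Per kb of exon, the mean level of Stom was 46.5 in DIO and 27.5 CPM per kb in lean soleus, 32.0 and 18.3 in red gastrocnemius, 18.3 and 18.2 in EDL, and 58.7 and 46.9 in heart. Mlf1 was at 39.7 and 46.7 CPM per kb in DIO and lean soleus, 61.9 and 97.5 in red gastrocnemius, 65.7 and 105 in EDL, and 52.6 and 55.0 in heart. Mettl21c was at 25.9 and 19.8 CPM per kb in DIO and lean soleus, 8.76 and 13.99 in red gastrocnemius, and 13.1 and 23.8 in EDL. Per length, Mlf1 was thus the highest of the 3 in both groups of red gastrocnemius and EDL, and Stom in DIO soleus and DIO heart.

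Levels between muscles were tested within each diet, in 1 fit per diet over the 4 muscles with limma. The median gene was higher in soleus than in EDL by 0.45 in DIO and 0.34 in lean mice on the log2 scale, and higher in red gastrocnemius than in EDL by 0.35 in DIO and 0.21 in lean mice. Differences from EDL are therefore given after rescaling by the median of ratios, which brings this shift close to 0. Between soleus and EDL, 73.5% of genes in DIO and 57.6% in lean mice passed the threshold on the CPM scale, so that passing it set a gene apart little. Between red gastrocnemius and EDL these shares were 62.4% and 34.8%. The skeletal muscle libraries of both diets also entered the contrast that chose the members, so these tests are not independent of that choice and their p-values only describe the spread. Without EDL DIO 3, EDL lean 3 and heart lean 3 and 5, the differences on the CPM scale kept sign and side of the threshold in 11 of the 12 contrasts with EDL, the exception being Mlf1 in lean red gastrocnemius minus EDL (-0.14, adjusted p = 0.65).

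Stom was higher in soleus than in EDL by 0.93 ± 0.11 in DIO mice (adjusted p = 3.26e-07) and by 0.28 ± 0.10 in lean mice (adjusted p = 0.0231). It was higher in soleus than in red gastrocnemius by 0.54 ± 0.16 in DIO mice (adjusted p = 0.0177) and by 0.58 ± 0.10 in lean mice (adjusted p = 0.000198). There 23.6% of genes passed in DIO and 20.8% in lean mice. The DIO call was lost without soleus DIO 4 (0.49, adjusted p = 0.0511) or red gastrocnemius DIO 1 (0.46, adjusted p = 0.0613). Heart exceeded soleus by 0.34 ± 0.16 in DIO mice (adjusted p = 0.0724; rescaled 0.40, adjusted p = 0.00344) and by 0.76 ± 0.10 in lean mice (adjusted p = 2.21e-06), where 56.4% and 53.4% of genes passed. Stom in lean mice was therefore ordered heart, soleus, then red gastrocnemius and EDL, which did not differ past the threshold (0.02, adjusted p = 0.912; rescaled -0.21, adjusted p = 0.0941). In DIO mice red gastrocnemius was above EDL by a rescaled 0.47 ± 0.11 (adjusted p = 0.00112).

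Mlf1 had the opposite order among skeletal muscles, being lower in soleus. Against EDL it was lower by 1.12 ± 0.22 in DIO mice (rescaled log2 difference -1.12, adjusted p = 0.000196) and by 1.36 ± 0.24 in lean mice (-1.36, adjusted p = 9.77e-05). Against red gastrocnemius the difference was -0.67 ± 0.21 in DIO mice (adjusted p = 0.0235) and -1.06 ± 0.26 in lean mice (adjusted p = 0.00541). That DIO call was lost without soleus DIO 3 or 4 or red gastrocnemius DIO 1 or 5, with adjusted p up to 0.0732. Red gastrocnemius and EDL did not differ past the threshold. The rescaled differences were -0.38 in DIO (adjusted p = 0.151) and -0.21 in lean mice (adjusted p = 0.511), the lean one having the other sign, 0.02, without rescaling.

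The order of the Mettl21c means among the muscles differed between the diets. In DIO mice soleus was above EDL by 0.51 ± 0.16 (rescaled, adjusted p = 0.00747), and in lean mice it was below EDL by a rescaled log2 difference of -0.58 ± 0.13 (adjusted p = 0.00106). Without rescaling, the lean difference was -0.25 ± 0.14 (adjusted p = 0.143), and the CPM ranges of lean soleus and lean EDL overlapped. Soleus was above red gastrocnemius by 1.51 ± 0.15 in DIO mice (adjusted p = 2.88e-07) and by 0.49 ± 0.14 in lean mice (adjusted p = 0.013). Red gastrocnemius was below EDL in both, with rescaled differences of -0.92 ± 0.16 in DIO mice and -0.97 ± 0.13 in lean mice (adjusted p = 7.26e-05 and 2.05e-05). The change of order is the diet contrast seen from the other side, and it was not tested.

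Outside striated muscle, Mettl21c was near the limit of detection, while Mlf1 was low and Stom was read in all 165 libraries. Mettl21c had no read in 102 of these 165 libraries and reached 1 CPM in 1 of them, brown fat DIO 5, at 1.54 CPM. Mlf1 had a median of 0.49 CPM over the 165 libraries and was at 0 in 9 of them. In the 40 brain libraries it ran from 0.393 to 3.46 CPM.

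Brown fat and stomach held the highest values of Mlf1 outside muscle, beside markers of skeletal muscle. Mlf1 in brown fat was 0.35, 0.0528, 0.0941, 0.215 and 15.4 CPM in DIO libraries, against 3.94, 6.27, 2.36, 0.737 and 2.53 CPM in lean libraries. The 6 fast fibre genes summed to 19.3 to 593 CPM in DIO and 19.8 to 318 CPM in lean brown fat, and 0 of the 6 were at 0 throughout. The library with the most Mlf1 in each diet also had the most of the fast troponin C gene Tnnc2, 330 CPM in DIO 5 and 158 CPM in lean 2. Their part in the Mlf1 level was not tested.

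In the lesser curvature of the stomach, Mlf1 was 9.64, 9.99, 1.93, 1.82 and 1.63 CPM in DIO libraries, against 4.33, 13.9, 15.2, 7.76 and 10.1 CPM in lean libraries. The 6 fast fibre genes summed to 82.8 to 291 CPM in DIO and 267 to 1698 CPM in lean stomach. Mettl21c reached 0.0866 CPM in DIO and 0.0571 CPM in lean stomach. Mlf1 and Mettl21c were below the filter of 10 CPM in both tissues, so their diet difference has no test there.

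**Figure D3:**
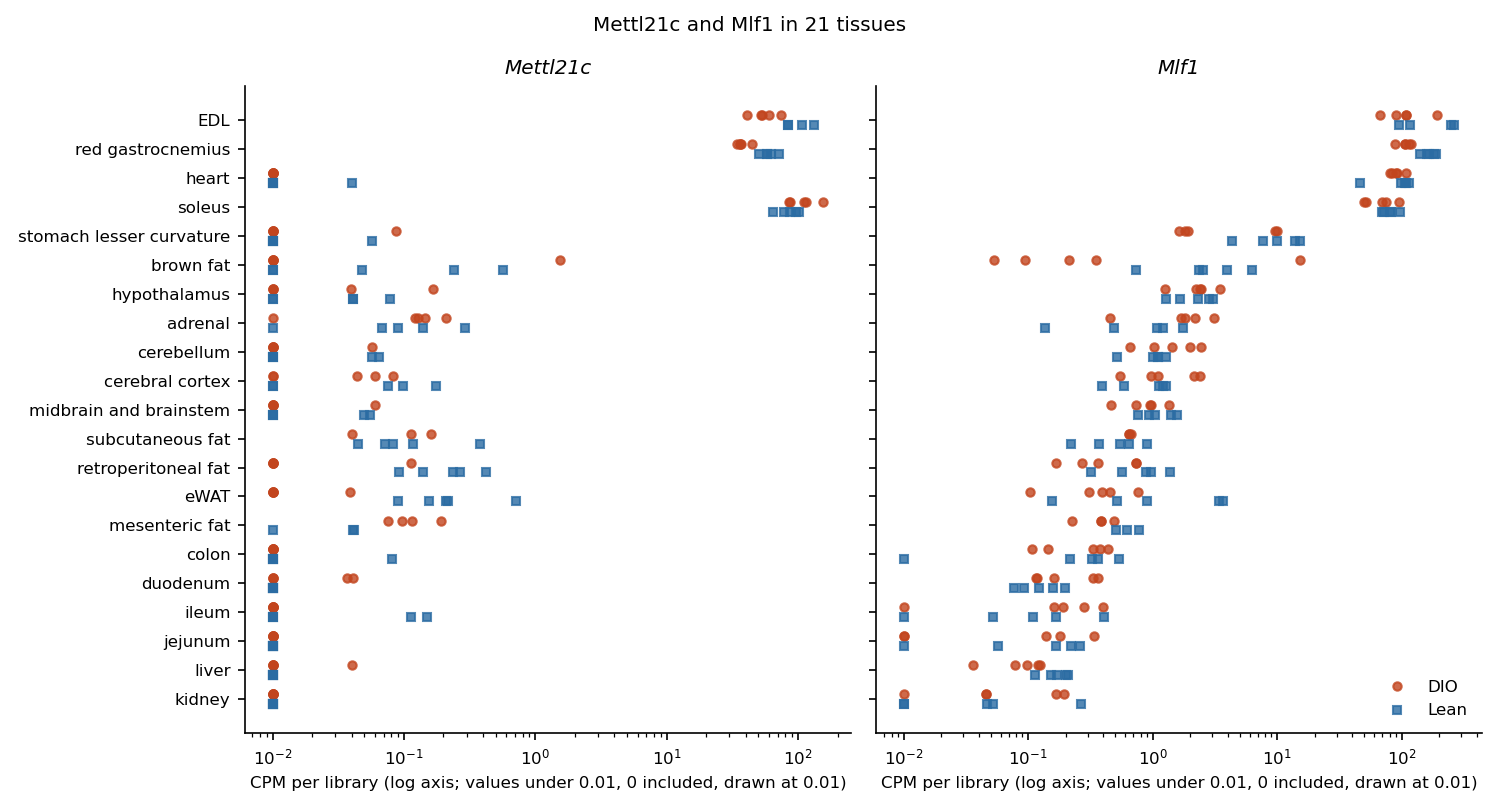
CPM per library of Mettl21c and Mlf1 (log axes; values under 0.01, 0 included, are drawn at 0.01) in 21 tissues, DIO (circles) above lean (squares). Mettl21c exceeds 30 CPM in the 3 skeletal muscles alone, and Mlf1 exceeds 40 CPM in these and in heart.

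Stom spanned the atlas. In DIO mice its mean was highest in brown fat, at 281 ± 12.9 CPM, followed by epididymal white fat (eWAT) at 213 ± 31.5, ileum at 212 ± 206, retroperitoneal fat at 195 ± 19.3 and subcutaneous fat at 171 ± 12.2 CPM. The place of ileum rests on DIO 1, at 580 CPM, without which its mean was 120 ± 15.1 CPM (n = 4), below soleus in the order. In lean mice brown fat also led, at 282 ± 16.4 CPM, followed by ileum at 240 ± 117, mesenteric fat at 148 ± 8.65 and jejunum at 144 ± 19.1 CPM. The lowest means were in kidney and the brain regions other than cerebellum, from 11.7 to 13.2 CPM in DIO and 11.7 to 12.6 CPM in lean mice. Brown fat was separate from the next tissue in DIO mice. In DIO mice 17 of the 20 pairs of neighbours in the order overlapped in range, and in lean mice 16 of 20 did.

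The diet difference of Stom in the tissues other than striated muscle ran in both directions. In eWAT it had 255, 209, 230, 200 and 172 CPM in DIO libraries, against 90.2, 90.4, 105, 110 and 98.5 CPM in lean libraries. The groups were far apart, and Stom rose by 1.09 ± 0.13 on the log2 scale (limma, adjusted p = 1.52e-05). In eWAT 36.3% of the 2155 genes tested rose, 29% were higher in DIO without overlap, and the median gene was shifted by 0.17. After rescaling, the rise was 0.91 ± 0.14. The 4 macrophage genes summed to 1322 to 4057 CPM in DIO and 120 to 178 CPM in lean eWAT, none at 0. The 4 adipocyte genes summed to 3954 to 11062 CPM in DIO and 14602 to 20800 CPM in lean eWAT, none at 0. Their part in the Stom difference was not tested.

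Retroperitoneal fat had 183, 206, 220, 197 and 170 CPM of Stom in DIO libraries, against 135, 141, 132, 126 and 102 CPM in lean libraries. Stom rose there by 0.62 ± 0.13 (adjusted p = 0.00235), beside 35% of the 2123 genes tested, and 28.2% were higher in DIO without overlap. After rescaling the difference was 0.35 ± 0.12, since the median gene was 0.25 higher in DIO, and with edgeR on recovered reads it was 0.34 and no longer passed (adjusted p = 0.0515). Macrophage genes summed to 1051 to 3280 CPM in DIO and 89.3 to 174 CPM in lean libraries, with none of the 4 at 0.

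Subcutaneous fat had 181, 175 and 157 CPM of Stom in DIO libraries, against 110, 131, 84.1, 129 and 117 CPM in lean libraries. Stom rose by 0.59 ± 0.16 (adjusted p = 0.046), beside 8.83% of the 2198 genes tested, and 20.2% were higher in DIO without overlap. Lean libraries 2 and 3 carried 147 and 146 CPM of the B cell gene Cr2, and without them the rise was 0.52 (adjusted p = 0.00267). The call was lost after rescaling, at 0.59 (adjusted p = 0.0824), without the filter, at 0.59 (adjusted p = 0.0745), with edgeR, at 0.54 (adjusted p = 0.104), and with the 10-gene index as a covariate, at 0.48 (adjusted p = 0.116). It was also lost when any 1 of the 8 libraries other than lean 3 was left out, at 0.55 to 0.65.

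In mesenteric and brown fat the DIO mean was not the higher one. Stom had 132, 94.7, 151 and 145 CPM in DIO mesenteric fat, against 141, 158 and 146 CPM in lean mesenteric fat. The difference was -0.20 ± 0.17 (adjusted p = 0.329), where 44.9% of genes passed. After rescaling, the median gene being shifted by 0.40, it was -0.57 ± 0.19 (adjusted p = 0.0651), and with DESeq2, which also rescales, it was -0.55 and passed (adjusted p = 0.023). Without DIO 2, which carried 269 CPM of Cr2, it was -0.06. In brown fat Stom ran from 266 to 296 CPM in DIO and from 263 to 301 CPM in lean libraries, a difference of -0.01 ± 0.06 (adjusted p = 0.934), where 44.1% of genes passed. The 4 white fat depots differed in the diet effect on Stom (limma F test of the diet by depot interaction, adjusted p = 0.000346), as did 38.6% of the 2176 genes tested.

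Of the 4 intestinal segments, jejunum was the only one in which Stom passed the threshold, being lower in DIO mice. Jejunum had 93.6, 97.9, 69.8, 120 and 73.1 CPM in DIO libraries, against 155, 139, 122, 171 and 133 CPM in lean libraries. Stom fell by 0.68 on the log2 scale (-0.68 ± 0.16, adjusted p = 0.0245), where 6.58% of the 2021 genes tested fell and 6.28% were lower in DIO without overlap. The median gene was shifted by -0.12, and after rescaling the difference was -0.55 (adjusted p = 0.0855). The call was also lost without the filter (-0.68, adjusted p = 0.0576), with edgeR (-0.55, adjusted p = 0.0861) and with DESeq2 (-0.52, adjusted p = 0.0556). It was lost again without DIO 3 (-0.59, adjusted p = 0.0648), lean 2 (-0.69, adjusted p = 0.0525) or lean 4 (-0.62, adjusted p = 0.0672).

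Duodenum had 34.9, 24.8, 32.5, 29.5 and 29.4 CPM of Stom in DIO libraries, against 74.6, 54.4, 35.9, 56.1 and 67.1 CPM in lean libraries. The groups did not overlap, with 1.2% of the 2075 genes tested lower in DIO in that way, but the highest DIO value, 34.9 CPM, lay close to the 35.9 CPM of lean 3. The difference was -0.88 ± 0.18 with an adjusted p of 0.0988, beside 0.289% of genes that passed, and -1.03 (adjusted p = 0.00347) without lean 3, which had the lowest level of the enterocyte gene Fabp2 (573 CPM). With array weights it was -0.98 (adjusted p = 0.0012) and with DESeq2 -1.07 (adjusted p = 0.00182).

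Ileum and colon overlapped. Ileum had 580, 135, 130, 111 and 103 CPM of Stom in DIO libraries, against 153, 234, 240, 141 and 432 CPM in lean libraries, a difference of -0.43 ± 0.45 (adjusted p = 0.88). The library at 580 CPM, ileum DIO 1, also carried 48.8 CPM of Cr2, against 0.487 to 2.73 CPM in the other DIO libraries, and without it the difference was -0.89 (adjusted p = 0.883). In colon the difference was -0.20 ± 0.14 (adjusted p = 0.455). The diet by segment interaction over the 4 segments did not pass (adjusted p = 0.568), where 16.1% of 2137 genes did.

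Liver had 67.5, 90.1, 109, 80.3 and 70.6 CPM of Stom in DIO libraries, against 70.4, 64.2, 69.5, 63.3 and 63.8 CPM in lean libraries, a difference of 0.31 ± 0.12 (adjusted p = 0.0664), where 27% of genes passed. Without DIO 1 it was 0.38 and passed (adjusted p = 0.029), and with the 10-gene index as a covariate it was 0.10 (adjusted p = 0.814). Kidney, adrenal and stomach gave differences of 0.00 ± 0.19, -0.19 ± 0.34 and 0.38 ± 0.28 (0.19 after rescaling in stomach, where the median gene was shifted by 0.20), and the 4 brain regions gave -0.05 to 0.06. The adjusted p-values of these 7 tissues were 0.511 or above, but with array weights stomach passed, at 0.56 (adjusted p = 0.0189). The diet by region interaction in brain had an adjusted p of 0.999, and 0% of 2426 genes passed it. Adrenal DIO 1 and 2 and lean 1 carried under 0.2 CPM of the steroidogenic gene Hsd3b1, and without them the adrenal difference was -0.43 (adjusted p = 0.27).

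**Figure D4:**
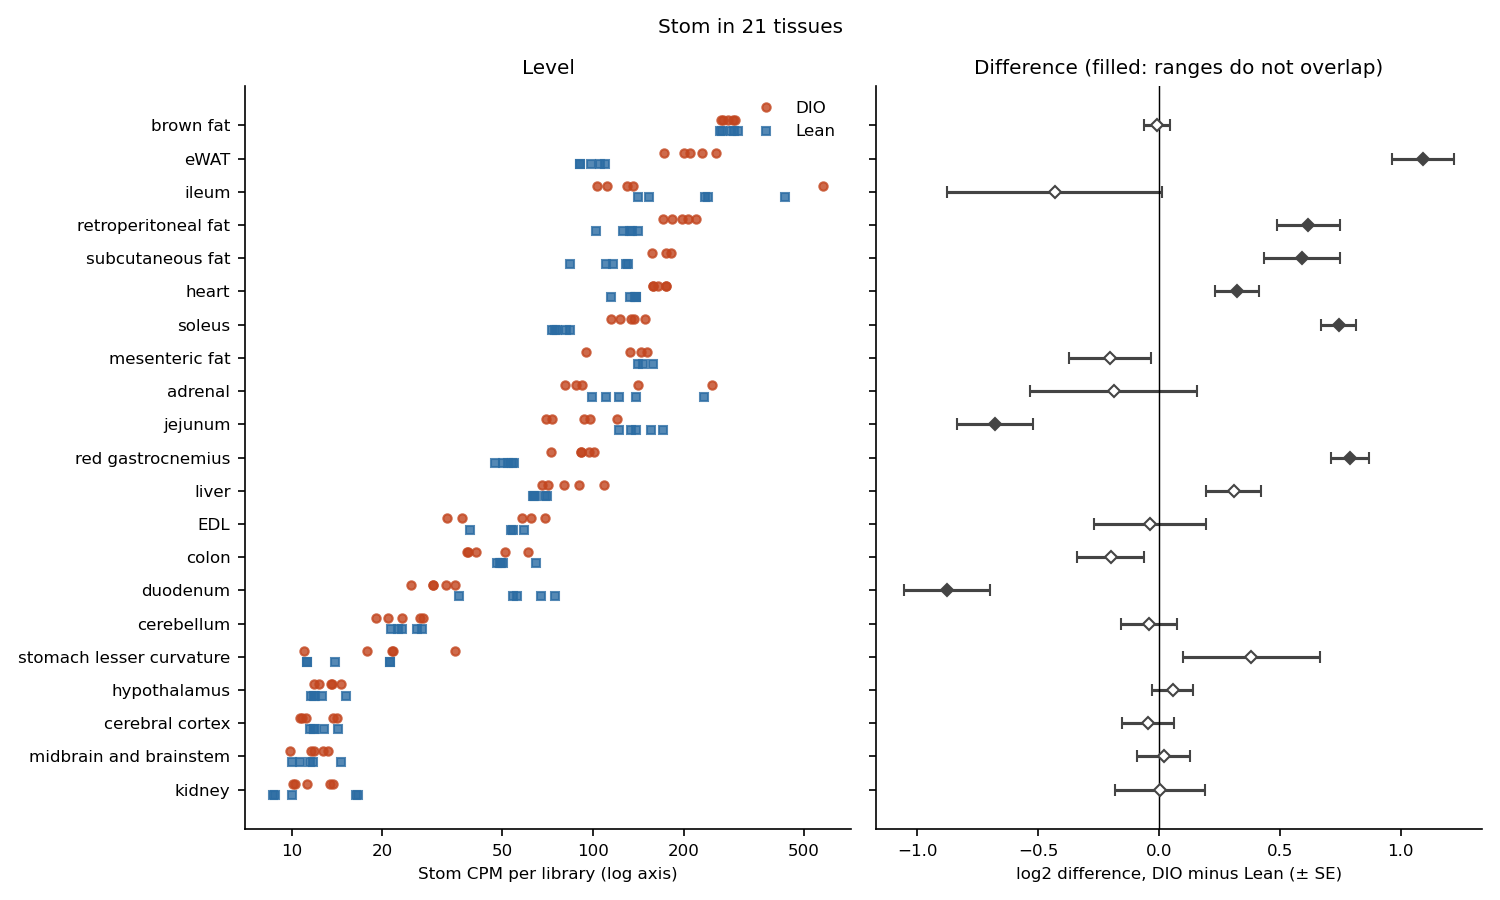
Stom in 21 tissues, ordered by the DIO mean: CPM per library on a log axis (left; DIO circles above lean squares) and the log2 difference DIO minus lean ± SE (right; filled where the groups do not overlap). Filled symbols lie to the right of 0 for 6 tissues (eWAT, red gastrocnemius, soleus, retroperitoneal fat, subcutaneous fat, heart) and to the left for 2 (duodenum, jejunum).

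Only relatives on chromosomes 1, 2, 3, X and part of 4 could be read in muscle, and none was listed for Mlf1. Stoml3, of the stomatin family, did not exceed 0.29 CPM in any muscle or heart library. Among methyltransferases related to Mettl21c, Mettl21a, which methylates heat shock chaperones, averaged 8.84 ± 1.04 CPM in DIO and 10.6 ± 0.839 CPM in lean soleus. Mettl18, a histidine methyltransferase of a ribosomal protein, averaged 2.06 ± 0.0566 CPM in DIO and 2.34 ± 0.246 CPM in lean soleus. Eef1aknmt, a methyltransferase of the translation elongation factor, averaged 7.7 ± 1.13 CPM in DIO and 8.36 ± 1.10 CPM in lean soleus. All 4 such relatives of Mettl21c were below the filter in all 4 muscles, so none was tested.

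Of Hax1, a mitochondrial survival protein gene, and Ywhab, a gene of the phosphoserine-binding adaptor family that Mlf1 binds, 1 rose in soleus and 0 passed elsewhere. Ywhab was at 71.1 ± 4.55 CPM in DIO and 59.8 ± 0.933 CPM in lean soleus (log2 difference 0.24 ± 0.05, adjusted p = 0.0373). In soleus 1.71% of genes passed the threshold, 19 higher and 10 lower in DIO.

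Few fibre type genes passed the threshold. Of 4 slow fibre genes, 1 fell in soleus and 0 passed in red gastrocnemius, EDL or heart, with 1 below the filter in EDL and in heart. Tpm3, slow tropomyosin, was at 2908 ± 241 CPM in DIO and 3802 ± 221 CPM in lean soleus (-0.39 ± 0.07, adjusted p = 0.0143), and Tnni1 at 1456 ± 164 CPM in DIO and 1594 ± 162 CPM in lean soleus (-0.13 ± 0.09, adjusted p = 0.651). Of the 6 fast fibre genes, 1 rose in red gastrocnemius, where 5.06% of all genes passed, and 0 passed in the other muscles, with 1 below the filter in soleus and in EDL and 5 in heart. That gene was Mybph, for a myosin-binding protein, singled out after its values were seen, with a log2 difference of 1.86 ± 0.25 (adjusted p = 0.00108). Its lean means were 13.4 CPM in red gastrocnemius, 2.82 in soleus and 1.96 in EDL, so unlike Tnnc2 it was not highest in EDL. In EDL, where Mybph was below the filter, its DIO mean was 9.63 ± 7.15 CPM. The median log2 differences in red gastrocnemius were 0.20 for the slow list and -0.08 for the fast list, against 0.00 for all genes.

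Tnnc2 was at 6550 ± 396 CPM in DIO and 7024 ± 262 CPM in lean red gastrocnemius (-0.10 ± 0.04, adjusted p = 0.209), and Casq1, fast calsequestrin, at 1739 ± 168 CPM in DIO and 1973 ± 133 CPM in lean muscle (-0.19 ± 0.07, adjusted p = 0.134). Of the striated muscle genes Ttn, Neb and Dmd, 0 of 3 passed in a skeletal muscle and 0 of the 2 above the filter in heart. Of 4 genes of denervation and the neuromuscular junction, 1 was above the filter in skeletal muscle, Chrna1, a subunit of the acetylcholine receptor. It rose in red gastrocnemius, being at 20.1 ± 1.26 CPM in DIO and 16.5 ± 0.857 CPM in lean red gastrocnemius (0.27 ± 0.05, adjusted p = 0.0211). Its difference was 0.07 ± 0.12 in soleus (adjusted p = 0.928) and -0.39 ± 0.22 in EDL (adjusted p = 0.89). In EDL only 1 gene, or 0.0684%, passed.

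Markers of other cells were read beside the members. The 4 red cell genes summed to 4.08 to 8.79 CPM in DIO and 2.86 to 7.6 CPM in lean soleus, and to 2.78 to 8.13 CPM in DIO and 2.8 to 4.73 CPM in lean red gastrocnemius. In both muscles these sums overlapped between the diets, and their part in the Stom difference was not tested. The erythroid transcription factor gene Gata1 was at 0 in all DIO soleus libraries. In heart the red cell genes summed to 31.4 to 90.0 CPM in DIO and 26.6 to 55.1 CPM in lean libraries.

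The 4 adipocyte genes summed to 417 to 580 CPM in DIO and 353 to 395 CPM in lean soleus, where Fabp4 rose (0.50 ± 0.09, adjusted p = 0.0207). Most of that sum was Fabp4, at 423 ± 50.7 CPM in DIO and 298 ± 27.4 CPM in lean soleus. Irs1 was at 57.1 ± 14.6 and 62.3 ± 22.5 CPM, Pck1 at 13.1 ± 3.35 and 12.1 ± 3.28, and Elovl6 at 9.1 ± 16.4 and 3.16 ± 0.866. In red gastrocnemius the 4 genes summed to 240.1 to 352 CPM in DIO and 239.7 to 293 CPM in lean libraries, and Fabp4 was at 237 ± 35.8 CPM in DIO and 185 ± 10.5 CPM in lean muscle (adjusted p = 0.0508). Irs1 was at 57.3 ± 15.1 CPM in DIO and 77.0 ± 25.3 CPM in lean red gastrocnemius, Pck1 at 3.26 and 2.98, and Elovl6 at 1.39 in both. None of the 4 was at 0, and their part in the Stom difference was not tested. The 3 endothelial genes summed to 102 to 139 CPM in DIO and 94.9 to 135 CPM in lean soleus, and to 88.3 to 119 CPM in DIO and 83.5 to 117 CPM in lean red gastrocnemius. The 4 macrophage genes summed to 13.4 to 18.6 CPM in DIO and 13.9 to 26.2 CPM in lean soleus. Lymphocyte genes (3) stayed under 4 CPM in sum in all 4 muscles, and the 2 nerve and Schwann cell genes summed to 24.3 to 80.4 CPM in DIO and 15.2 to 90.9 CPM in lean soleus.

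Across the 42 tissue and diet groups, the genes nearest to each member were ranked by Pearson's r of mean log2(CPM + 1), as a description over groups in which each tissue counts once per diet. Stom was nearest to Optn (r = 0.858), an autophagy receptor gene, then Dll4 (0.823), Decr1 (0.785), Slc28a2 (0.777) and Slc43a3 (0.765). Mettl21c was nearest to Gm8424 (0.993), a processed pseudogene on chromosome X, then Ampd1 (0.976), Tceal7 (0.974), Chrna1 (0.973) and Uckl1os (0.962). Mlf1 was nearest to the muscle genes Trim55 (0.978), 1110002E22Rik (0.978), Ttn (0.978), Dusp27 (0.977) and Xirp2 (0.976). The coefficients of Mettl21c and Mlf1 rest on the gap between muscle and the other tissues.

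Among the 29 skeletal muscle libraries, after the mean of each muscle was removed, 1395 genes were ranked in the same way. These deviations hold the diet difference that chose the members, so the neighbours are described and not tested. Stom was nearest to Cat (r = 0.83), catalase, then Decr1 (0.826), a mitochondrial reductase of unsaturated fatty acid oxidation, and Nceh1 (0.801), a cholesterol ester hydrolase. Decr1 was at 333 ± 33.6 CPM in DIO and 169 ± 13.2 CPM in lean red gastrocnemius, and at 439 ± 48.5 CPM in DIO and 237 ± 20.5 CPM in lean soleus. Cat was at 237 ± 20.7 CPM in DIO and 145 ± 10.8 CPM in lean red gastrocnemius, and at 391 ± 19.9 CPM in DIO and 279 ± 31.2 CPM in lean soleus. In EDL, where the Stom means were alike, Decr1 was at 119 ± 28.7 CPM in DIO and 96.8 ± 27.8 CPM in lean muscle (0.32 ± 0.21), and Cat at 165 ± 58.0 CPM in DIO and 112 ± 18.4 CPM in lean muscle (0.50 ± 0.23). The means of both genes were thus higher in DIO in all 3 skeletal muscles, but in EDL the groups of both overlapped. The Stom means were higher in DIO in soleus and red gastrocnemius. For Nceh1 the log2 difference was 0.48 ± 0.10 in red gastrocnemius, 0.25 ± 0.12 in soleus and -0.09 ± 0.24 in EDL.

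Mettl21c was nearest to Scrn3 (r = 0.693), Gstm5 (0.651), a glutathione transferase, and Smox (0.647), spermine oxidase. Smox was at 126 ± 27.8 CPM in DIO and 236 ± 45.2 CPM in lean red gastrocnemius, at 123 ± 27.6 CPM in DIO and 271 ± 41.6 CPM in lean EDL, and at 28.5 ± 15.6 CPM in DIO and 32.7 ± 10.8 CPM in lean soleus. Like Mettl21c, Smox was lower in DIO in the red gastrocnemius and EDL means, but in soleus its DIO mean was the lower one, unlike that of Mettl21c. The nearer genes differed less than Smox. In red gastrocnemius the log2 difference was -0.04 ± 0.04 for Scrn3, -0.13 ± 0.05 for Gstm5 and -0.91 ± 0.15 for Smox. In EDL it was -0.18 ± 0.12, -0.26 ± 0.17 and -1.15 ± 0.17 in the same order. Mlf1 was nearest to Gstm5 (r = 0.879) and to the ribosomal protein genes Rps4x (0.87) and Rps27 (0.863). Rps4x was at 172 ± 54.1 CPM in DIO and 236 ± 82.9 CPM in lean EDL with overlapping groups, and Mlf1's highest EDL libraries were among those of high library index. In red gastrocnemius, where the Mlf1 groups were apart, its neighbours differed less than Mlf1 (-0.65 ± 0.09). The log2 differences there were -0.13 ± 0.05 for Gstm5, -0.09 ± 0.04 for Rps4x and -0.09 ± 0.04 for Rps27.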

How the data were processed

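The deposited table holds CPM per gene and library made by the authors. Per the submitters' processing notes the tools were FastQC, STAR, HTSeq and DESeq2; neither their versions nor the genome build is given. Per the labels' protocols, reads were paired, 100 nt, from stranded libraries of frozen tissue; whether counting used strand is not given, nor is it clear how age was counted, since mice were obtained at 6 to 12 weeks but started the diet at 4 weeks. Every value was a whole multiple of 1 read within 0.001, so reads and totals were recovered. The table holds chromosomes 1, 2, 3, X and part of 4; 1 column of no listed sample and 1 incomplete gene were not used. Symbols came from GENCODE M21 (13139 identifiers matched).

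Differences were fitted with limma 3.58.1 (R 4.3.3; mean-variance trend) on log2(CPM + 1) per tissue for genes averaging at least 10 CPM, with Benjamini-Hochberg adjustment at 0.05; this scale understates changes of low genes. Alternatives were a pseudocount of 5, no filter, median-of-ratios rescaling, array weights, edgeR 4.0.16 and DESeq2 1.42.0 on recovered reads, and leaving out each library. Leaving out 16 libraries that stand apart, the 10-gene index and a Ttn class were added after the data were seen. The fits were also run on simulated counts of a fixed dispersion, which need not match the spread of the members, so nothing is concluded from that run. Replicate pairs in muscle and heart differed by at least 3.83 times the sampling variance, so none agreed within sampling noise.

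The members and gene lists were chosen with earlier results of these data known. Named genes were the members, all genes of lists of up to 4 or the 4 highest in muscle of longer lists, and the nearest genes by correlation (5 over groups, 3 over skeletal muscle libraries); 1 list gene is not reported here.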

Additional observations from a re-analysis of the deposited data

Results flagged for a closer look

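In 6 of 65 groups of 4 to 10 libraries, 1 library of a member lay far from the others by Dixon's criterion, which chance flags in about 1 group in 20. Ileum DIO 1 held 580 CPM of Stom, against 103 to 135 CPM in the other DIO libraries, and 48.8 CPM of the B cell gene Cr2. Colon lean 4 held 64.5 CPM of Stom, against 47.9 to 50.4 CPM in the others. Heart lean 2 held 114 CPM of Stom, against 133 to 139 CPM. Red gastrocnemius DIO 1 held 44.6 CPM of Mettl21c, against 34.5 to 36.8 CPM. Brown fat DIO 5 held 15.4 CPM of Mlf1, against 0.0528 to 0.35 CPM, beside 330 CPM of Tnnc2 and 765 CPM of Ttn. Heart lean 5 held 45.9 CPM of Mlf1, against 98.9 to 114 CPM, and had the lowest median rank correlation of the hearts (0.853).

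The diet difference of Stom was unequal across the 4 white fat depots (limma interaction, adjusted p = 0.000346), as was that of 38.6% of the 2176 genes tested. It also separated the diets in opposite directions without overlap. Every DIO library was above every lean library in eWAT (1.09), red gastrocnemius (0.79), soleus (0.74), retroperitoneal fat (0.62), subcutaneous fat (0.59) and heart (0.32). Every DIO library was below every lean library in duodenum (-0.88) and jejunum (-0.68). These are log2 differences, and the difference between these tissues was not tested. Genes higher in DIO without overlap made up 29%, 28.2% and 20.2% of those fitted in eWAT, retroperitoneal and subcutaneous fat, and 1.6% in heart. Lower ones made up 1.2% in duodenum and 6.28% in jejunum. Soleus and red gastrocnemius (2.42% and 3.54% higher) belong to the contrast that chose Stom. Its differences in heart and duodenum did not pass the threshold (limma, adjusted p = 0.429 and 0.0988).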

How the results depend on the processing

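Besides leaving out 1 library, 401 recomputed values over 55 results kept direction and, where tested, side of the threshold in 353 cases; 19 turned sign, 11 lost a call and 18 gained one. Leaving out 1 library kept both in 796 of 855 cases. The cause of these changes was not tested. Values are log2 differences, DIO minus lean for diet.

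For Stom, array weights gave 0.0018 in brown fat, 0.15 in cerebellum, -0.98 in duodenum, 0.37 in heart, -0.0029 in midbrain and 0.56 in stomach, and -0.39 for Mlf1 in heart. Stom in EDL (-0.035), untested, was 0.082 with scaling and 0.11 with edgeR or DESeq2. Without the filter Stom was -0.68 in jejunum and 0.59 in subcutaneous fat, and with median-of-ratios scaling -0.55 and 0.59. With edgeR it was -0.55 in jejunum, -0.037 in kidney, 0.34 in retroperitoneal and 0.54 in subcutaneous fat. With DESeq2 it was -1.07 in duodenum, -0.52 in jejunum, -0.043 in kidney and -0.55 in mesenteric fat, where a call was gained. A pseudocount of 5 gave -0.0046 in kidney. The index covariate gave 0.072 in adrenal and 0.48 in subcutaneous fat, and leaving out the libraries that stand apart -1.03 in duodenum.

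Between lean muscles, Mettl21c in soleus minus EDL was -0.58 with scaling, -0.56 with edgeR and -0.57 with DESeq2. In red gastrocnemius minus EDL, Stom was -0.21 with scaling, -0.052 with array weights, -0.20 with edgeR and -0.22 with DESeq2, and Mlf1 was -0.21, -0.23, -0.27 and -0.30 in the same order and -0.14 without the libraries that stand apart. Mlf1 in heart minus soleus was 0.52 with array weights. In DIO muscles without the filter, soleus minus red gastrocnemius was 0.54 for Stom and -0.67 for Mlf1. Heart minus soleus was 0.40 for Stom with scaling, edgeR or DESeq2, 0.37 with array weights and 0.34 without the libraries that stand apart. For Mlf1 it was 0.48 with array weights and 0.44 without those libraries.

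Leaving out 1 library gave Stom ranges of -0.45 to 0.012 in adrenal, -0.032 to 0.016 in brown fat, -0.099 to 0.024 in cerebellum, -0.10 to 0.00038 in cortex, -1.03 to -0.78 in duodenum, -0.78 to -0.59 in jejunum, -0.093 to 0.12 in kidney, -0.16 to 0.11 in EDL, 0.21 to 0.38 in liver, -0.030 to 0.10 in midbrain and 0.49 to 0.65 in subcutaneous fat. Mlf1 in heart ran from -0.24 to 0.084. In lean red gastrocnemius minus EDL, Stom ran from -0.11 to 0.089 and Mlf1 from -0.24 to 0.25. In DIO mice, soleus minus red gastrocnemius ran from 0.46 to 0.58 for Stom and -0.80 to -0.56 for Mlf1, red gastrocnemius minus EDL from -0.17 to 0.20 for Mlf1, and heart minus soleus from 0.29 to 0.39 for Stom and 0.33 to 0.57 for Mlf1.

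Genes passing in soleus numbered 29, against 18 without the filter, 68 with DESeq2, 198 with the index and 66 with a Ttn class. Red gastrocnemius had 83, against 48, 130 with array weights, 151 with DESeq2 and 33 with the index. EDL had 1, against 0 without the filter, with scaling, with edgeR or without the libraries that stand apart, 4 with DESeq2 and 3 with the index. Heart had 2, against 4 with scaling or edgeR, 811 with array weights, 13 with DESeq2, and 8 with the index or without the libraries that stand apart. No paired analysis was possible because the labels give no replicate numbers that tie libraries to mice. Depth limits Mettl21c outside striated muscle, where 102 of 165 libraries had no read.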
